A study of Mus musculus with 9 samples.

Results

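The 9 genes Krt19, Krt7, Krt23, Sox9, Epcam, Spp1, Prom1, Cd24a and Mmp7, which are used as markers of bile duct cells and of liver progenitor cells, were followed across 9 mouse livers. They were chosen by symbol, as rows of a count table of 24411 genes. All 9 were in the table, and all 9 were among the 11199 genes that passed a filter on low counts and were tested.

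Cholangiocytes are the epithelial cells that line the bile ducts, and the smallest ducts join the hepatocyte plates at the canals of Hering. In injured liver, cells with the markers of small ducts can spread from the portal tracts into the lobule, which is called a ductular reaction, and some of these cells have been described as progenitors of both hepatocytes and cholangiocytes. Hepatocytes can also come to express some of these genes, SOX9 and osteopontin among them, so that the markers do not name a single cell of origin.

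RNA was sequenced from whole livers of 3 genotypes, with 3 mice each, all aged 3 months and of C57BL/6 background. The control livers, called cont., were homozygous for a floxed allele of Atg7, a gene required for autophagy, and carried no Cre. The Atg7-KO livers had the same floxed alleles and the Alb-Cre transgene, in which the albumin promoter drives Cre in hepatocytes, so that other liver cells keep Atg7 except where they descend from a cell that once expressed the transgene. The third group, Atg7-KO;p62-S351A (S351A from here on), had the floxed alleles and Alb-Cre and in addition carried p62 with the serine-to-alanine change S351A on both copies. In all groups the Atg7 alleles were thus floxed, and none of them carried the p62 change without Alb-Cre. The labels of 2 S351A libraries, replicates 2 and 3, disagree with their own titles on the mutated position of one p62 copy, and the groups follow the titles.

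The cont. libraries held 1875325 to 15426575 expected counts, the Atg7-KO libraries 1945483 to 3675058 and the S351A libraries 713841 to 792372, so that every S351A library was smaller than every other library and depth cannot be told apart from the p62 genotype. Levels are given as CPM, counts per 1000000 of the library size after TMM scaling (trimmed mean of M values), and the level that 3 counts give, taken as the floor, lay between 0.269 and 3.73 CPM. An edgeR adjusted p is the p-value of edgeR's quasi-likelihood F test, corrected over the 11199 genes by the method of Benjamini and Hochberg. Atg7 itself was at 42.4 to 57.8 CPM in cont., 28.0 to 30.2 CPM in the Atg7-KO livers and 21.8 to 24.8 CPM in S351A, without overlap between cont. and either other group. Its log2 fold change was -0.74 in Atg7-KO (edgeR adjusted p = 0.00758) and -1.07 in S351A (edgeR adjusted p = 0.00319), but it was not called when libraries were scaled by their totals (-0.20 with edgeR adjusted p = 0.855, and -0.59 with edgeR adjusted p = 0.0639). Of the hepatocyte genes, Alb averaged 55496 ± 23562 CPM (SD, n = 3) in cont. and 24613 ± 3015 in Atg7-KO, the highest mean level in each group among the genes of the cell type lists used here. Counts are per gene and do not separate the floxed part of Atg7.

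The first question was whether the markers differed in livers without hepatocyte Atg7. In Atg7-KO, 8 of the 9 were called higher than in cont., which means an adjusted p under 0.05 and a fold change above 1.5, and Krt23 was the exception. The background was wide, as 19.9% of all genes passed in this direction and 18.1% in the other. The libraries of Atg7-KO lay above those of cont. without overlap for 9 of 9 markers, against 26.7% of all genes. Because a marker that is high in only one group can pass the filter through that group alone, these counts describe the markers and are not a test of the list. The 9 had a median log2 fold change of 3.33, and all tested genes had -0.03.

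The second question was whether livers that also carried p62 S351A had other levels. In S351A against cont., 8 of 9 markers were again called higher, all but Krt23, where 15.6% of all genes passed upward and 13.0% downward, and 9 of 9 did not overlap, where 19.6% of all genes did not. These comparisons share the cont. libraries, so their values are set side by side and not counted as separate support. In S351A against Atg7-KO, 0 of 9 markers were called by edgeR, by DESeq2 or by limma-voom, and 0 of 9 had an unadjusted p under 0.05, a level that 6.60% of all genes passed. The background of that comparison was 1 called gene among 11199 (0.00893%), which is no marker. The libraries of S351A lay above those of Atg7-KO without overlap for 0 of 9 markers and for 7.67% of all genes. Since RNA came from whole liver, a change in the number of cells of a type and a change in RNA per cell cannot be told apart in any of these values.

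**Figure D1:**
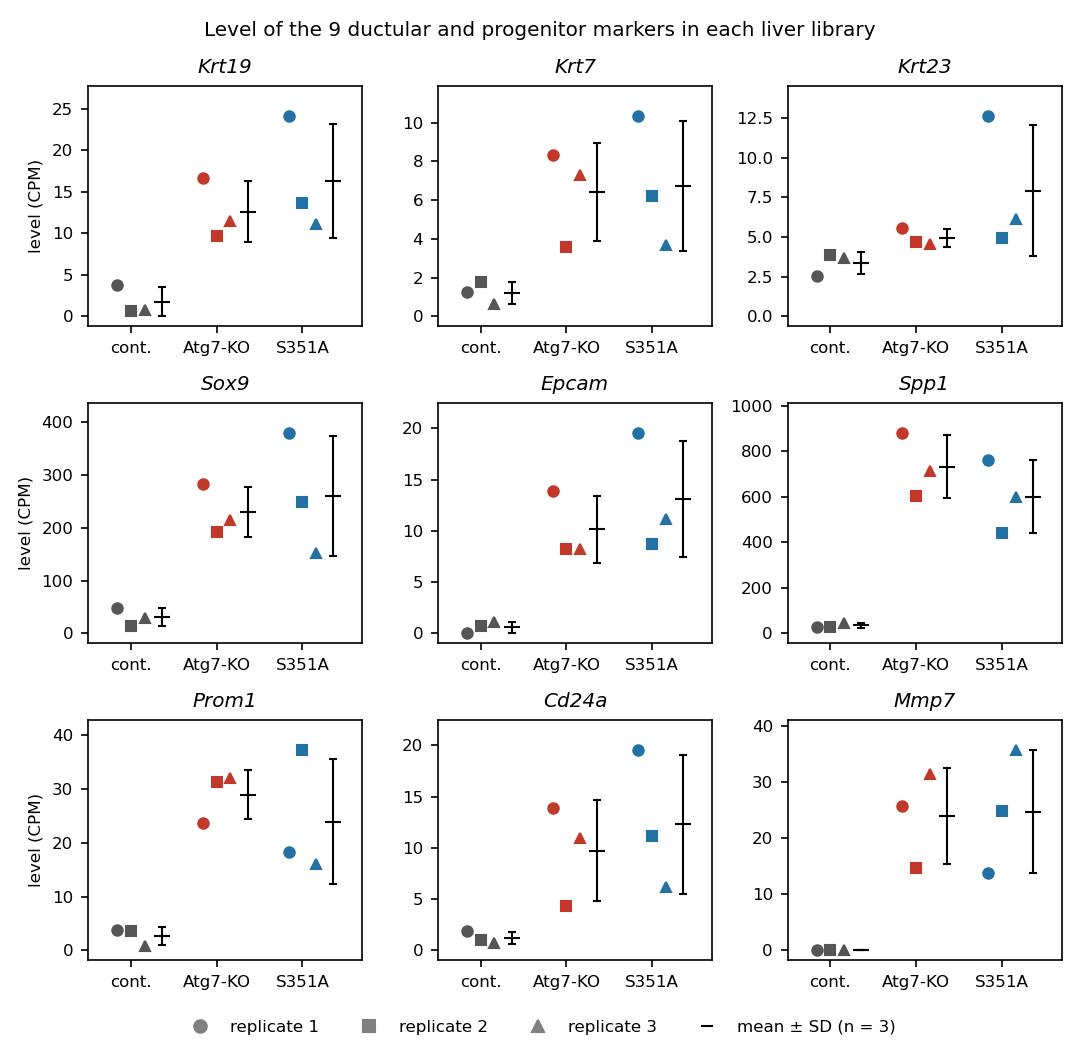
Level in CPM (vertical axes, each including 0) of the 9 markers by group, where S351A stands for Atg7-KO;p62-S351A, with a point for each library, its shape giving the replicate, and the mean ± SD of n = 3 in black. Every Atg7-KO and S351A point lies above every cont. point of its panel, while the points of Atg7-KO and S351A overlap in all 9 panels.

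Among the keratins, Krt19 (chromosome 11 of mm10, 100140810-100148665, minus strand) encodes the type I keratin by which bile ducts are commonly stained. Its level was 3.81, 0.704 and 0.806 CPM in cont., 16.7, 9.69 and 11.4 CPM in the Atg7-KO livers, and 24.1, 13.7 and 11.1 CPM in S351A, for replicates 1 to 3. The lowest library with Cre was at 2.54 times the level of the highest without it, and replicate 1 was the highest in each group. Behind the cont. values were 6, 2 and 9 counts, so that the control level itself is poorly known. The log2 fold change was 3.33 (SE 0.54) in Atg7-KO (edgeR adjusted p = 0.000513) and 3.69 (SE 0.59) in S351A (edgeR adjusted p = 0.000805). These values moved with single cont. libraries, to 3.95 and 4.30 without replicate 1 and to 2.73 and 3.07 without replicate 3, and stayed called.

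Krt7 (chromosome 15, 101411043-101430313, plus strand) encodes the type II keratin that pairs with keratin 19 in ducts. It was the lowest of the 9 per length in each group but cont., where Mmp7 was lower, and its libraries held 2 to 7 counts in cont., 10 to 36 in Atg7-KO and 3 to 9 in S351A. These correspond to 1.27, 1.76 and 0.627 CPM in cont., 8.35, 3.59 and 7.32 CPM in the Atg7-KO livers, and 10.3, 6.21 and 3.70 CPM in S351A. The groups with Cre lay above cont. and spread 2.79-fold within S351A, whose lowest library was at its floor of 3 counts. Krt7 was 6.24-fold higher in Atg7-KO (95% interval 2.73 to 14.3, edgeR adjusted p = 0.00247) and 6.54-fold higher in S351A (2.48 to 17.3, edgeR adjusted p = 0.00823). Without replicate 1 of S351A the second call was lost (log2 fold change 2.23, edgeR adjusted p = 0.07). Without replicate 3 of cont. the log2 fold changes went from 2.64 and 2.71 to 2.00 and 2.06, both still called. The antisense gene Gm671 overlaps a Krt7 exon, and as the strand setting of the counting was not stated, reads of the pair cannot be told apart.

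Krt23 (chromosome 11, 99477974-99493137, minus strand) is a type I keratin that is low in healthy liver and has been described as induced in stressed or ductular liver epithelium. Its levels were 2.54, 3.87 and 3.67 CPM in cont., 5.57, 4.67 and 4.58 CPM in the Atg7-KO livers, and 12.6, 4.97 and 6.17 CPM in S351A. It was thus the marker with the smallest gap: the highest cont. library and the lowest Atg7-KO library were less than 1 CPM apart, and only replicate 1 of S351A stood clear of the rest. The log2 fold change was 0.51 (SE 0.39, edgeR adjusted p = 0.324) in Atg7-KO and 1.18 (SE 0.44, edgeR adjusted p = 0.0622) in S351A, so neither passed the threshold. Scaling by library totals, under which the median change over all tested genes moved up by 0.55 in Atg7-KO and 0.50 in S351A on the log2 scale, put Krt23 past it in both groups (1.08 with edgeR adjusted p = 0.0406, and 1.70 with edgeR adjusted p = 0.0122). Without replicate 1 the S351A value was 0.66 (edgeR adjusted p = 0.447).

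Sox9 (chromosome 11, 112782224-112787760, plus strand) encodes a transcription factor that marks cholangiocytes and periportal hepatocytes and takes part in bile duct formation. It is one of the better counted members, with 40 to 333 counts in cont. and 124 or more in every other library. The levels were 48.9, 14.1 and 29.8 CPM in cont., 283, 191 and 215 CPM in the Atg7-KO livers, and 379, 248 and 153 CPM in S351A. All 6 libraries with Cre were above the highest cont. library, and the S351A libraries spread on both sides of Atg7-KO. Sox9 was 7.57-fold higher in Atg7-KO (95% interval 3.97 to 14.4, edgeR adjusted p = 0.000261) and 8.57-fold higher in S351A (4.46 to 16.5, edgeR adjusted p = 0.000383).

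At the cell surface, Epcam (chromosome 17, 87635979-87651129, plus strand) encodes an epithelial adhesion molecule that cholangiocytes carry and that mature hepatocytes lack. Its counts in cont. were 0, 2 and 12, so that only the deepest control library was clearly above the floor. The levels were 0, 0.704 and 1.08 CPM in cont., 13.9, 8.26 and 8.24 CPM in the Atg7-KO livers, and 19.5, 8.69 and 11.1 CPM in S351A. Every library with Cre was above 8 CPM and every cont. library below 2. The log2 fold changes were 3.56 (SE 0.51, edgeR adjusted p = 0.000232) and 3.92 (SE 0.56, edgeR adjusted p = 0.000448). Without replicate 3 of cont. they were 4.35 and 4.69, both called.

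Prom1 (chromosome 5, 43993620-44102032, minus strand) encodes prominin 1, or CD133, a membrane protein of cell protrusions that is used to sort liver progenitor cells. It was at 3.81, 3.52 and 0.806 CPM in cont., at 23.7, 31.2 and 32.0 CPM in the Atg7-KO livers, and at 18.4, 37.3 and 16.0 CPM in S351A. Unlike most of the markers it was lowest in replicate 1 of Atg7-KO and highest in replicate 2 of S351A. Prom1 was 14.4-fold higher in Atg7-KO (95% interval 6.82 to 30.4, edgeR adjusted p = 0.00011) and 11.9-fold higher in S351A (5.23 to 27.1, edgeR adjusted p = 0.000639). Without replicate 3 of cont., the lowest library, the log2 fold changes went from 3.85 and 3.57 to 2.96 and 2.68, and after thinning to the smallest library they were 3.07 and 2.74, called in each case. An antisense gene, Gm16401, overlaps a Prom1 exon, with the same limit as for Krt7.

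Cd24a (chromosome 10, 43578284-43584265, plus strand) encodes a small glycosylated surface protein carried by many immature epithelial and blood cells. The levels were 1.91, 1.06 and 0.717 CPM in cont., 13.9, 4.31 and 11.0 CPM in the Atg7-KO livers, and 19.5, 11.2 and 6.17 CPM in S351A. It was among the most variable markers within groups, with the highest library at 3.23 times the lowest in Atg7-KO and 3.17 times in S351A, yet no library of these reached down to cont. The log2 fold change was 3.29 (SE 0.59, edgeR adjusted p = 0.000984) in Atg7-KO and 3.61 (SE 0.65, edgeR adjusted p = 0.00177) in S351A.

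Among the secreted products, Spp1 (chromosome 5, 104435118-104441050, plus strand) encodes osteopontin, a matrix phosphoprotein made by cholangiocytes and by activated macrophages and stellate cells, which binds integrins and CD44. It was the most abundant of the 9, with 46 to 513 counts in cont. and 356 or more in each other library. Its levels were 29.2, 29.9 and 46.0 CPM in cont., 880, 603 and 715 CPM in the Atg7-KO livers, and 761, 442 and 600 CPM in S351A. The lowest library with Cre was 9.62 times the highest library without it. Spp1 was 20.6-fold higher in Atg7-KO (95% interval 12.8 to 33.2, edgeR adjusted p = 2.21e-06) and 16.9-fold higher in S351A (10.6 to 27.1, edgeR adjusted p = 8.39e-06). The annotation places a provisional gene model, Gm42793, over a Spp1 exon on the same strand.

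Mmp7 (chromosome 9, 7692090-7699585, plus strand) encodes matrilysin, a protease that epithelial cells secrete and that cuts osteopontin among other substrates. No count fell on it in any cont. library, whose floors were 0.269 to 1.91 CPM. It was at 25.8, 14.7 and 31.6 CPM in Atg7-KO and at 13.8, 24.8 and 35.8 CPM in S351A, on 41 to 111 and 12 to 29 counts, and in CPM the groups with Cre overlapped. When the group mean was set against the highest cont. floor, Mmp7 was at least 12.6-fold higher in Atg7-KO and at least 13.0-fold higher in S351A. That floor is the one of replicate 1 of cont., and without this library the bounds were 22.7-fold and 23.5-fold. These bounds hold for group means and leave out the spread among the libraries of each group. The edgeR adjusted p-values were 2.21e-05 and 6.03e-05. An antisense gene, AV064505, overlaps a Mmp7 exon.

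**Figure D2:**
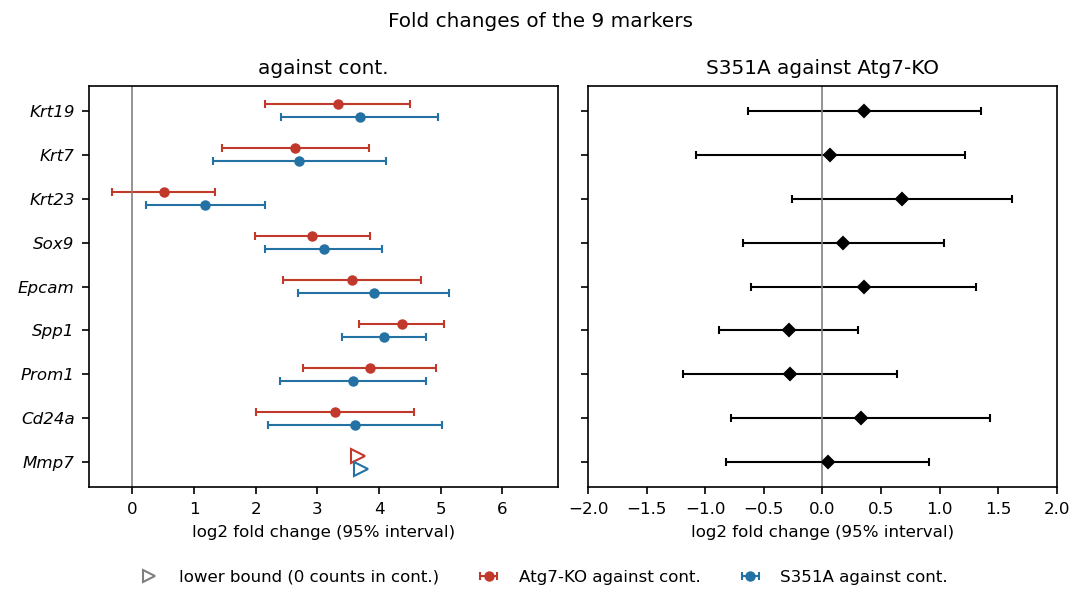
Log2 fold change of the 9 markers with its 95% interval (horizontal axes), against cont. for Atg7-KO (red) and Atg7-KO;p62-S351A (blue) at the left and between these 2 groups at the right. The intervals against cont. exclude 0 except for Krt23 in Atg7-KO, and all 9 intervals at the right include 0. The open triangles mark the lower bounds of Mmp7, its group means over the highest cont. floor, and are not ends of intervals.

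Because several markers move together, their promoters were read where RefSeq (GRCm38.p6) gives a window from 250 bases before to 50 bases after a gene start. There were 9 windows for 6 markers, 1 each for Krt7, Krt23 and Epcam and 2 each for Spp1, Prom1 and Mmp7. The first Spp1 window, the first Mmp7 window and the second Prom1 window are printed, for the most abundant marker, for the one without a count in cont., and for a further one whose window holds an AP-1 motif. Each reads 5′ to 3′ on the gene's strand, with the start after the first 250 bases, and capitals mark a motif match. The windows are chr5:104434861-104435160 (plus strand), chr9:7691840-7692139 (plus strand) and chr5:44101687-44101986 (minus strand).
Spp1: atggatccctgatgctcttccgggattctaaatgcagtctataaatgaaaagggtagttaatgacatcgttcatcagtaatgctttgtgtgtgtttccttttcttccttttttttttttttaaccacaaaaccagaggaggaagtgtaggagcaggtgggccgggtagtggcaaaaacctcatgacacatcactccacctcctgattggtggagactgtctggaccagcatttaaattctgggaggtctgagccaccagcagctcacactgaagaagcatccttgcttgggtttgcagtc
Mmp7: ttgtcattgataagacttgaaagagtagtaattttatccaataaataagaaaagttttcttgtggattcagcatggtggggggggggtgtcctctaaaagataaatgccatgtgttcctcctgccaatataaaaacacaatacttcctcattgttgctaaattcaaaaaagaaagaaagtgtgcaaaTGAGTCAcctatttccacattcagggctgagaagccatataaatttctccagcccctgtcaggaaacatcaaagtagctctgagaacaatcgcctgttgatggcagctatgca
Prom1: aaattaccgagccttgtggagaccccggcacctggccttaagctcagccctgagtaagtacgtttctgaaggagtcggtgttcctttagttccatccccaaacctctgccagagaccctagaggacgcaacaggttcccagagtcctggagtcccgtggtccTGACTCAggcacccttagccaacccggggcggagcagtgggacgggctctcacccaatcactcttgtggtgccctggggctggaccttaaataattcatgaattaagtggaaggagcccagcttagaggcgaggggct

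Of the motifs searched on both strands, 4 are given here. TGANTCA, which AP-1 factors bind, was in 3 of the 9 windows, 63 bases before the start in the printed Mmp7 window, 88 before it in the printed Prom1 window and 189 before it in the other Prom1 window, and in 7.81% of the 32851 windows of all genes. TGACNNNGC, the core of the antioxidant response element that NRF2 binds, was in 1 window (the first of Prom1) and in 12.4% of all windows. GTGGGAA, bound by the Notch effector RBPJ, was in 1 window (the second of Mmp7) and in 6.38% of all. GGAATG, bound by TEAD factors, was in 0 of 9 and in 14.7% of all. The printed Spp1 window held none of the 4. These are matches of letters in a short window and were not measured as bound.

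In Atg7-KO, Spp1 was at 445 ± 84.4 CPM per kb of exon (SD, n = 3), followed by Sox9 at 55.6 ± 11.6 and Mmp7 at 22.5 ± 8.02, and the libraries of these 3 did not overlap with those of their neighbours. Then came Krt19 at 6.80 ± 1.97, Epcam at 4.62 ± 1.49, Prom1 at 4.04 ± 0.643, Cd24a at 3.77 ± 1.91 and Krt23 at 3.15 ± 0.351 CPM per kb, each overlapping the next. Krt7 was last, at 0.911 ± 0.355 CPM per kb, below every Krt23 library. Lengths are those of all annotated exons of a gene joined, which are long for Krt7 and Prom1 and lower their values.

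The order was not the same in cont. There Krt23 stood in the third place with 2.15 ± 0.458 CPM per kb, after Spp1 (21.3 ± 5.74) and Sox9 (7.49 ± 4.22), and overlapped Krt19 (0.957 ± 0.952), while Mmp7 was last with no count. In S351A the first 5 places were those of Atg7-KO, with Spp1 at 365 ± 96.6 and Sox9 at 62.9 ± 27.5 CPM per kb. Mmp7 at 23.2 ± 10.3 CPM per kb there overlapped Krt19 at 8.79 ± 3.72, and from Mmp7 down to Prom1 each marker overlapped the next.

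**Figure D3:**
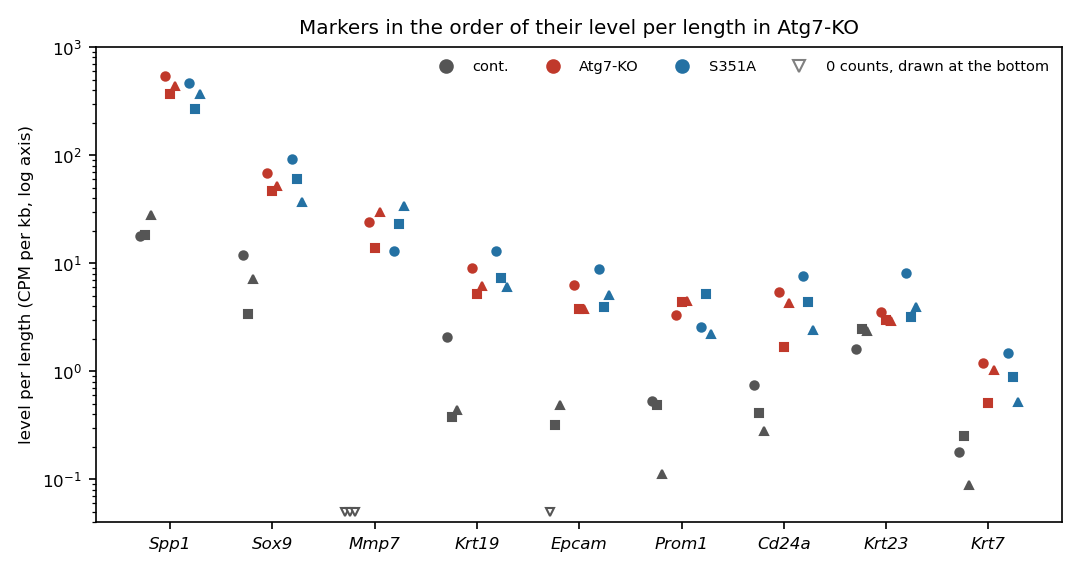
Level per length in CPM per kb of exon (log axis) of the 9 markers in each library, in the order of their Atg7-KO means, with cont. in grey, Atg7-KO in red, Atg7-KO;p62-S351A in blue and the replicate given by shape (circle 1, square 2, triangle 3). Open triangles at the bottom are libraries with 0 counts. Spp1 is highest in each group, and Mmp7 moves from no count to the third place.

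Between S351A and Atg7-KO, 7 of the 9 log2 fold changes were above 0 and 2 below, with a median of 0.18 for the markers and 0.01 over all genes. The best determined of them was Spp1, at -0.29 (95% interval -0.88 to 0.31), which is 0.543 to 1.24 times the Atg7-KO level. For Prom1 the value was -0.27 (-1.19 to 0.64), for Sox9 0.18 (-0.68 to 1.04) and for Mmp7 0.04 (-0.82 to 0.91). The Mmp7 value was below 0 with scaling by totals and with libraries thinned to the smallest total. Differences inside these intervals were not detectable with these libraries, and the test does not show that the groups were alike.

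The remaining intervals were wider, and the S351A libraries held 21 counts or fewer of each of these genes. Krt19 was at 0.36 (-0.64 to 1.35), Epcam at 0.35 (-0.61 to 1.31), Cd24a at 0.33 (-0.78 to 1.43) and Krt7 at 0.07 (-1.08 to 1.22). Krt23 had the largest difference, 0.68 (-0.26 to 1.62), with an edgeR adjusted p of 0.847. Without replicate 1 of S351A the values of Krt19, Krt7, Sox9, Epcam and Cd24a fell below 0, between -0.05 and -0.39, and Krt23 was at 0.16. The sign of these 5 differences therefore changed with 1 library.

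Further genes of biliary identity, on a list of 15 without the 9 markers, were read in the same fit. Of 13 tested, 12 were called higher in Atg7-KO and 12 in S351A, 0 were called lower, and the median log2 fold changes were 4.67 and 4.27. Of all genes, 19.9% were called higher in Atg7-KO and 15.6% in S351A. Sox4, a transcription factor that acts beside SOX9 in duct formation, was at 26.1, 13.4 and 4.39 CPM in cont., 469, 336 and 328 CPM in the Atg7-KO livers, and 689, 437 and 191 CPM in S351A. It was 28.4-fold higher in Atg7-KO (edgeR adjusted p = 0.000108) and 33.1-fold higher in S351A (edgeR adjusted p = 0.000178). Bicc1, an RNA-binding protein of ducts and kidney tubules, rose 51.6-fold (95% interval 27.1 to 98.3) and 43.5-fold (22.3 to 85.0). Ehf, an epithelial ETS factor, rose 27.7-fold (13.1 to 58.2) and 29.8-fold (13.4 to 65.9). The cont. libraries held only 3 to 10 counts of Bicc1 and 2 to 10 of Ehf, so the size of these changes is uncertain. Slc10a2, the apical bile acid transporter of cholangiocytes, was not called (log2 fold change 0.26 and 0.25).

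Notch and TWEAK signals are known to act on ductular cells. Of 8 tested genes of that list 5 were called higher in each group against cont. and 0 lower. The share of all genes called higher was 19.9% in Atg7-KO and 15.6% in S351A. Tnfrsf12a, the TWEAK receptor, had the largest change, 14.7-fold in Atg7-KO (edgeR adjusted p = 6.99e-06) and 10.6-fold in S351A (edgeR adjusted p = 5.01e-05), and its ligand Tnfsf12 rose 2.34-fold and 1.80-fold. The Notch ligand Jag1 rose 2.76-fold and 2.89-fold and the Notch target Hes1 2.35-fold and 2.63-fold (edgeR adjusted p = 0.0314 and 0.0274 for Hes1). The Hes1 libraries overlapped, at 18.7 to 71.2 CPM in cont., 65.3 to 101 in Atg7-KO and 69.1 to 116 in S351A. Notch1, Notch2 and Rbpj were not called (log2 fold changes 0.15, -0.11 and 0.19 in Atg7-KO), but with scaling by totals Notch1 and Rbpj were called higher in Atg7-KO and Rbpj in S351A, and Notch2 changed its sign in both and Notch1 in S351A.

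The receptors of osteopontin were a list of 7, of which 6 were tested. In Atg7-KO 4 were called higher, where 19.9% of all genes were, and in S351A 3, where 15.6% were, with 0 lower in either. Cd44 averaged 6.77 ± 0.766 CPM (SD, n = 3) in cont., 46.8 ± 6.02 in the Atg7-KO livers and 37.5 ± 13.1 in S351A, which the fit put at 7.05-fold and 5.69-fold. The integrin subunits Itgav and Itgb5 rose 4.33-fold and 2.90-fold in Atg7-KO and 3.56-fold and 2.40-fold in S351A. Itgb1 was called in Atg7-KO (1.77-fold, edgeR adjusted p = 0.0093) and was at a log2 fold change of 0.58 in S351A (edgeR adjusted p = 0.0636), where scaling by totals made it a call. With that scaling 5 of the 6 were called higher in Atg7-KO, Itga9 among them, and 4 in S351A, and the value of Itga4 in Atg7-KO changed its sign.

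Genes linked to liver progenitor cells went in both directions. Of 8 tested, Atg7-KO had 6 called higher and 1 called lower, and S351A had 5 and 0. The same shares over all genes were 19.9% and 18.1% in Atg7-KO, and 15.6% and 13.0% in S351A. Ncam1, a surface molecule of reactive ductules, rose 32.1-fold (95% interval 13.2 to 78.2) and 42.4-fold (16.9 to 106), from 5 to 7 counts in a cont. library. Lcn2, a secreted siderophore-binding protein, rose 27.8-fold and 26.3-fold, Alcam 4.15-fold and 3.83-fold, and Igfbp7 3.09-fold and 2.96-fold. The one called lower was Lgr5, a Wnt target of pericentral hepatocytes and of progenitors, at 11.4 to 12.0 CPM in cont., 3.23 to 3.71 in Atg7-KO and 5.74 to 11.2 in S351A (log2 fold change -1.72 in Atg7-KO with edgeR adjusted p = 0.00096). Foxl1 and Dlk1 were nearly absent from every group and were not tested. Neither had a count in cont., while Foxl1 summed to 4 counts in Atg7-KO and 1 in S351A, and Dlk1 to 1 and 0.

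**Figure D4:**
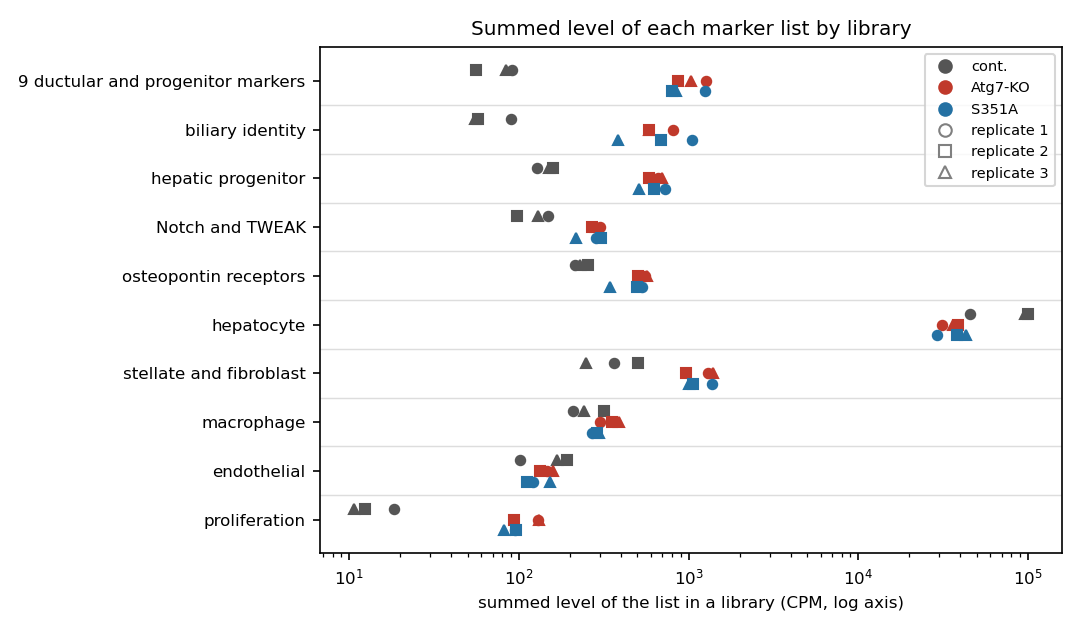
Summed level in CPM (log axis) of the 9 markers and of 9 gene lists in each library of cont. (grey), Atg7-KO (red) and Atg7-KO;p62-S351A (blue), with the replicate given by shape. The 9 markers sum to 55.6 to 91.5 CPM in cont. and to 797 CPM or more in every library with Cre, and the lists of other cell types are shown beside them.

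Lists of other liver cells were read in the same way, since some of these cells express single markers too. Beside their counts stand the shares of all genes, 19.9% called higher and 18.1% lower in Atg7-KO, and 15.6% and 13.0% in S351A. Of the 8 hepatocyte genes 5 were called lower and 1 higher in Atg7-KO, and 5 lower and 0 higher in S351A: Alb (log2 fold change -1.17 and -1.15), Apoa1, Ttr, Tat and Cps1 fell, and Krt8 rose in Atg7-KO. With scaling by totals 4 and 2 of the 8 were called lower and 3 and 2 higher, and Alb was not called in either group. The summed hepatocyte level was 45274 to 100460 CPM in cont., 31132 to 38588 in Atg7-KO and 29027 to 42949 in S351A, with replicate 1 of cont. standing apart from the other cont. libraries and close to the other groups. Without that library 8, 8 and 0 of the 9 markers were called in the 3 comparisons, and 4484, 3572 and 0 of the 11852 genes tested.

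Macrophage genes, whose cells can make Spp1, were called higher for 6 of 9 in each group, with 0 lower. Their sum was 208 to 316 CPM in cont., 300 to 389 in Atg7-KO and 271 to 296 in S351A, so that each group with Cre overlapped cont., while all Atg7-KO sums lay above those of S351A. The genes of the list moved by unequal amounts. Csf1r, the receptor that macrophages depend on, rose 2.67-fold and 2.19-fold, and Trem2, a lipid-sensing receptor of macrophages, rose 21.4-fold in Atg7-KO (95% interval 11.6 to 39.4, edgeR adjusted p = 1.05e-05) and 22.7-fold in S351A (11.6 to 44.3, edgeR adjusted p = 3.54e-05), from a cont. level near the floor with 1 to 5 counts in a library. Gpnmb, a glycoprotein of activated macrophages, had 0 counts in cont. and averaged 5.29 CPM in Atg7-KO and 5.13 in S351A. Clec4f and Cd5l, markers of Kupffer cells, made up most of the cont. sum, at 143 and 48.5 CPM, and were not called in either group. Of the 7 stellate cell and fibroblast genes, 5 were called higher in each group, and their sum was 250 to 504 CPM in cont. against 965 or more in every other library. Dcn made up most of the cont. sum, at 291 CPM, and rose 2.36-fold and 2.57-fold. The fibrillar collagen genes rose more, Col3a1 by 12.6-fold and 8.21-fold, and Col1a1 by 21.8-fold in Atg7-KO and by 3.95 on the log2 scale in S351A. Of 5 proliferation genes 5 and 4 were called higher, with Mki67 averaging 3.84 ± 0.367 CPM (SD, n = 3) in cont., 47.0 ± 8.58 in the Atg7-KO livers and 34.2 ± 2.87 in S351A. Which cells these transcripts came from, and the part of macrophages or stellate cells in the Spp1 values, was not tested.

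The remaining lists were those of endothelium, blood cells, mesothelium and pancreas. Of 6 endothelial genes 1 (Lyve1) was called higher and 2 (Stab2 and Clec4g) lower in Atg7-KO, where scaling by totals left 0 lower, and 1 (Lyve1) higher and 0 lower in S351A. Of 3 erythroid genes tested 2 were called lower in each group, Alas2 with log2 fold changes of -3.27 and -2.32 and Hba-a2 with -2.07 and -1.70. The erythroid sum was 322 to 899 CPM in cont., 93.0 to 204 in Atg7-KO and 151 to 217 in S351A, without overlap with cont. The near-identical Hba-a1 had 0 counts in each library, so that the Hba-a2 counts may hold reads of both. Of 1 neutrophil gene tested (Csf3r) 1 was called higher in each. Mesothelial cells, which carry several keratins, had 0 of 5 genes tested and sums of 0.627 to 13.8 CPM, Msln and Wt1 included, and the pancreatic acinar list had 0 of 5 tested and sums of up to 2.48 CPM.

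The genes whose profile over the 9 libraries was most like that of a marker were found by the root mean square difference of log2 CPM centred on each gene's mean, among 10634 genes with a mean of at least 5 CPM. For Krt19 these were Usp43, Hr, Clmp, Mapk13 and Palm, with differences of 0.19 to 0.33. For Spp1 they were Unc5b, Casp12, Fam83a, 6030419C18Rik and Misp, with 0.25 to 0.34. Usp43 was at 0.543, 6.56 and 7.93 CPM on average in cont., Atg7-KO and S351A, and Unc5b at 1.99, 46.8 and 40.1. The 9 libraries form 3 groups, so that a likeness of this kind is mainly one of group levels.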

How the data were processed

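RNA of 9 livers (3 cont., 3 Atg7-KO and 3 Atg7-KO;p62-S351A) was measured by poly(A) RNA-seq. The deposited table holds expected counts per gene symbol, which the authors made by trimming reads with Trim Galore, mapping them to mm10 with STAR and estimating gene levels with RSEM. Tool versions, the annotation and the strand setting are not given in the sources used here. Values were rounded, since 4.40% to 7.75% of a library's values were not whole, and no other scaling had been applied.

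Samples were grouped by their titles, none was left out, and no sequencing batch was given. In edgeR 4.0.16 (R 4.3.3), filterByExpr (minimum count 10, minimum total 15) left 11199 genes. TMM factors scaled the libraries, and a single quasi-likelihood fit to the 9 libraries held 1 coefficient for each group. The 3 pairs of groups were compared by the quasi-likelihood F test, two-sided. A gene was called at a Benjamini-Hochberg adjusted p under 0.05 over all genes tested with a fold change above 1.5. SEs and 95% intervals are those implied by the test. Log2 CPM used a prior count of 2. Floors cover counting error only, and reads lacking molecular identifiers can be copies of 1 molecule.

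The 9 markers, the gene lists, the motifs and the tests were chosen with earlier results of these data known. The lists reported held genes of biliary identity, Notch and TWEAK signalling, osteopontin receptors, hepatic progenitors, hepatocytes, mesothelium, macrophages, neutrophils, red cells, stellate cells and fibroblasts, endothelium, proliferation and pancreatic acini. The 4 called genes with the highest mean CPM were named from each list, or fewer, and further list genes were named after their values were seen. Some list genes and 1 motif are not reported here. Positions and exon lengths are from GENCODE for mm10, where 23376 of the 24411 symbols had a match. DESeq2 1.42.0, limma-voom (limma 3.58.1), other scalings and filters, a sex term, a replicate block, thinning to the smallest library and leaving out each library were alternatives.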

Additional observations from a re-analysis of the deposited data

How the results depend on the processing

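Depth limits these results. With at least 10 counts required in every library 2 of the 9 markers were left to test (Sox9 and Spp1), and 2 were called in Atg7-KO and 2 in S351A against cont. After thinning to the smallest library 5 were left, and 5 were called in each. Counts over all genes in Atg7-KO against cont. went from 4253 to 2504 and 2569 under these settings. In S351A against cont. they went from 3208 to 1941 and 2090, and to 1849 with only the 6 libraries compared, where 6 of 6 markers left were called. Without 1 library they ranged from 2098 (without S351A replicate 1) to 3572. In S351A against Atg7-KO the 1 called gene became 98 without a filter, 48 with DESeq2 and 10 with the 6 libraries, and 0 with 10 counts in every library, with limma-voom, with the replicate block and after thinning, and ranged from 0 to 3 without 1 library. No marker was called in that comparison under any of the 20 alternative settings.

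Scaling by library totals in place of TMM moved the median over all tested genes up by 0.55 and 0.50 (log2) against cont. and changed the split of calls, from 2226 higher among 4253 to 4312 among 5108 in Atg7-KO, and from 1748 among 3208 to 3541 among 4051 in S351A. Of the single values of markers, 168 of 169 in Atg7-KO against cont. and 164 of 166 in S351A against cont. kept their direction and their side of the threshold. The exceptions were Krt23, called in both with scaling by totals, and Krt7 in S351A, not called without replicate 1 of S351A. In S351A against Atg7-KO 12 of 168 values changed sign. Mmp7 went from 0.04 to -0.0060 with scaling by totals, -0.0074 without a filter and -0.030 after thinning. Without 1 library the values ranged from -0.32 to 0.34 for Mmp7, from -0.39 to 0.35 for Krt7, from -0.19 to 0.71 for Cd24a, from -0.046 to 0.63 for Krt19, from -0.20 to 0.44 for Sox9 and from -0.061 to 0.67 for Epcam. The cause was not tested.

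Replicate numbers are shared across groups in the titles, but nothing says that they pair mice. Over 9 pairs with the same number the deviations from group means correlated with r between -0.04 and 0.31, and over 18 other pairs between -0.26 and 0.21. With the replicate block 8, 8 and 0 markers were called in the 3 comparisons, and 4460, 3542 and 0 genes.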

Other observations

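Replicate 1 was the highest library of its group for the same 7 of the 9 markers in Atg7-KO and in S351A, namely Krt19, Krt7, Krt23, Sox9, Epcam, Spp1 and Cd24a. Over all genes tested, that library was highest for 35.8% in Atg7-KO and 33.5% in S351A. By Xist and Y-linked genes, replicate 1 was the only male library in each of these groups, while cont. had 2 males and 1 female. With a term for sex in the model 8, 8 and 0 markers were called in the 3 comparisons, and 4390, 3351 and 1 of the 11676 genes tested. With 1 male in a group, sex cannot be told apart from the single mouse. Prom1 and Mmp7 were the exceptions, highest in replicate 3 of Atg7-KO, and in replicates 2 and 3 of S351A.

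In S351A against Atg7-KO, 2 of 8 tested genes of the progenitor list and 3 of 13 of the biliary identity list had an unadjusted p under 0.05, against 6.60% of all genes tested. There were 0 among the 9 markers, 0 of 8 on the Notch and TWEAK list and 0 of 6 among the osteopontin receptors, and 1 gene each on the lists of hepatocytes (Krt8), macrophages (Marco), stellate cells and fibroblasts (Col3a1), endothelium (Lyve1) and proliferation (Mki67). Afp, the fetal albumin-like protein, was at 13.0, 18.3 and 26.1 CPM in Atg7-KO and at 8.04, 1.24 and 2.47 CPM in S351A (floors 3.45 to 3.73), with a log2 fold change of -2.22 (unadjusted p = 0.00241, edgeR adjusted p = 0.402). Lgr5 was higher by 1.25 on the log2 scale (edgeR adjusted p = 0.571). On the biliary list Ggt1 was at a log2 fold change of -1.79 (unadjusted p = 0.0151, edgeR adjusted p = 0.692), Cftr at -1.09 (unadjusted p = 0.0363, edgeR adjusted p = 0.742) and Pkhd1 at 0.70 (unadjusted p = 0.0462, edgeR adjusted p = 0.755). None of the genes named here passed the correction over all genes, and they were picked after their values were seen.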
